A study of Homo sapiens with 4 samples.

Results

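Expression of genes for the red cell membrane and its blood group antigens was examined in CD31+ cells made from the human embryonic stem cell line H1, an established line, at day 8 of hematopoietic differentiation. The 8 genes were taken by symbol: GYPB, GYPC, GYPE, EPB42, SLC4A1, ANK1, RHAG and KEL, of 58229 genes in the deposited table. Both groups had been led toward mesoderm with activin A and BMP4 and then toward blood with VEGF and bFGF. The 2 HAND1_OE libraries came from cells made to overexpress HAND1, a basic helix-loop-helix transcription factor of heart, mesenchyme and extraembryonic tissue, and the 2 Control libraries from cells without that overexpression. The promoter that drove HAND1 is not given in the sources used here. Since nothing states that the libraries of a group came from separate cultures, p-values measure the spread between these libraries, which may be technical.

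The red cell membrane is held on a spectrin network by a pair of protein complexes. In the ankyrin complex, band 3, the anion exchanger encoded by SLC4A1, is tied to spectrin by ankyrin (ANK1) and by EPB42, a transglutaminase relative without enzyme activity, and it is joined by the Rh polypeptides and the Rh-associated glycoprotein RHAG. In the junctional complex, glycophorin C (GYPC) is held to actin through EPB41 and MPP1. Glycophorins are heavily sialylated proteins that give the cell its negative charge. GYPB carries the S and s antigens, GYPE is a close relative of GYPB in the same gene cluster, and GYPC carries the Gerbich antigens. KEL, a zinc endopeptidase that carries the Kell antigens, is bound to XK. Many of these genes are switched on as erythroid precursors mature, whereas GYPC is also known from cells outside the blood.

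Values were in FPKM, fragments scaled to transcript length and library depth, so that levels can be set side by side between genes. Such comparisons depend on the transcript lengths assumed, which matters for genes with short transcripts such as GYPB. In low single-exon genes, 96.4% to 97.6% of values lay within 0.05 of a whole number of fragments, which placed the depth at about 21600000 to 26200000 fragments per library. HAND1 was at 12.1 and 14.3 FPKM in Control, against 520.5 and 517 FPKM in HAND1_OE, so the overexpressed gene followed the labels. PECAM1, which encodes CD31, was at 95.5 and 141 FPKM in Control and 92.0 and 160.2 FPKM in HAND1_OE, and all 8 endothelial markers examined were above 1 FPKM in enough libraries to be tested. Fold changes are differences of mean log2(FPKM + 1), HAND1_OE minus Control, which understate the change of low genes. They were tested with limma in the 14622 genes that reached 1 FPKM in 2 libraries or more, and a gene was called at an adjusted p under 0.05.

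Promoter sequences of the glycophorin pair are shown because GYPB and GYPE were close in sequence and both fell. They are the 250 bases before the RefSeq start on GRCh38.p14, written 5′ to 3′ on the minus strand, at chr4:144019381-144019630 for GYPB and chr4:143905560-143905809 for GYPE. Capitals mark GATA words, the letters that GATA factors are known to bind, searched on either strand. They were AGATAA, its variant with a leading T (TGATAA), and the forms of both that end in G (AGATAG and then also TGATAG).
GYPB: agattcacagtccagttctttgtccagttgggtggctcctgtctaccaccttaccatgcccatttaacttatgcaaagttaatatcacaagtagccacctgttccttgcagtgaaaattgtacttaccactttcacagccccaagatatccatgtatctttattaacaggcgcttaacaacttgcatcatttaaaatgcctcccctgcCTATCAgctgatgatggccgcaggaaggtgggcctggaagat
GYPE: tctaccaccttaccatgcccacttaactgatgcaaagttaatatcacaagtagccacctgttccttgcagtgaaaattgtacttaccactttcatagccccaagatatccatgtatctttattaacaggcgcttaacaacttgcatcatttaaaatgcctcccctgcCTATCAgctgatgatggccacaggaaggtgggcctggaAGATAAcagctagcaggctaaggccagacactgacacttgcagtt
A local alignment matched the stretch from -209 to -1 of GYPB to that from -250 to -42 of GYPE in 205 of 209 columns, which is 98.1% identity, positions being counted back from each start. The GATA word at -42 of GYPB lay in the aligned stretch with that at -83 of GYPE. The AGATAA at -45 of GYPE had its counterpart in GYPB across the annotated start, from -4, so it was outside the GYPB window.

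The windows of RHAG, KEL, GYPC and EPB42 held the same words at other places. Each is shown with 12 bases on either side, at chr6:49636853-49636882 (minus strand, -31) for RHAG, at chr7:142962408-142962437 (minus strand, -62) and chr7:142962372-142962401 (minus strand, -26) for KEL, at chr2:126656082-126656111 (plus strand, -64) for GYPC and at chr15:43221062-43221091 (minus strand, -61) for EPB42.
RHAG: agtcctttgttcTTATCAacatctcacagc
KEL, -62: cctgagaagctgAGATAAagggggaggaga
KEL, -26: ggtgccccccacTGATAAgcaggctccacc
GYPC: aatgaagtctgcCTATCTccgggccagagc
EPB42: tcctggcacaagAGATAAaatgaacagggt
EPB42 held a further AGATAA at -208. The stretches shown for RHAG, KEL, GYPC and EPB42 lie before the RefSeq starts but inside the gene spans of GENCODE. Those spans reach 49636884 for RHAG, 142962681 for KEL and 43221125 for EPB42, and that of GYPC begins at 126655933. Whether these words precede the start thus depends on the annotation. The words of GYPB and GYPE and the further one of EPB42 lie outside the GENCODE spans. All 6 genes with a RefSeq promoter entry held at least 1 GATA word, and GYPE, EPB42 and KEL held 2, against 22.3% and 4.96% of 35116 RefSeq promoters of the same length. SLC4A1 and ANK1 had no entry. The words CCACACCC and CCGCACCC, known from binding of KLF1, were in none of the 6 windows and in 5.05% of all promoters, searched on both strands. CATCTG, an E-box word, was in the GYPC window alone, at -220, and in 12.2% of all promoters. A word match describes the letters of the window and no more.

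Of the 8 genes, 6 passed the filter, and 4 of these were called lower in HAND1_OE: GYPB, GYPE, RHAG and KEL. Over all genes tested 2.11% were called lower. None of the 8 was called higher by limma, where 2.04% of all genes tested were, and 1, GYPC, was higher at an unadjusted p under 0.05. The 6 tested genes had a median log2 fold change of -2.96, beside -0.08 over all genes tested. Both HAND1_OE libraries lay below both Control libraries for GYPB, GYPE, RHAG, KEL, ANK1 and EPB42, as they did for 30.1% of all genes tested. Both lay above for GYPC, as for 16.2% of all genes tested. GYPE passed the filter through its Control libraries alone, and EPB42 and SLC4A1 did not pass it. In bulk samples, fewer cells of a type and less RNA per cell cannot be told apart.

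**Figure D1:**
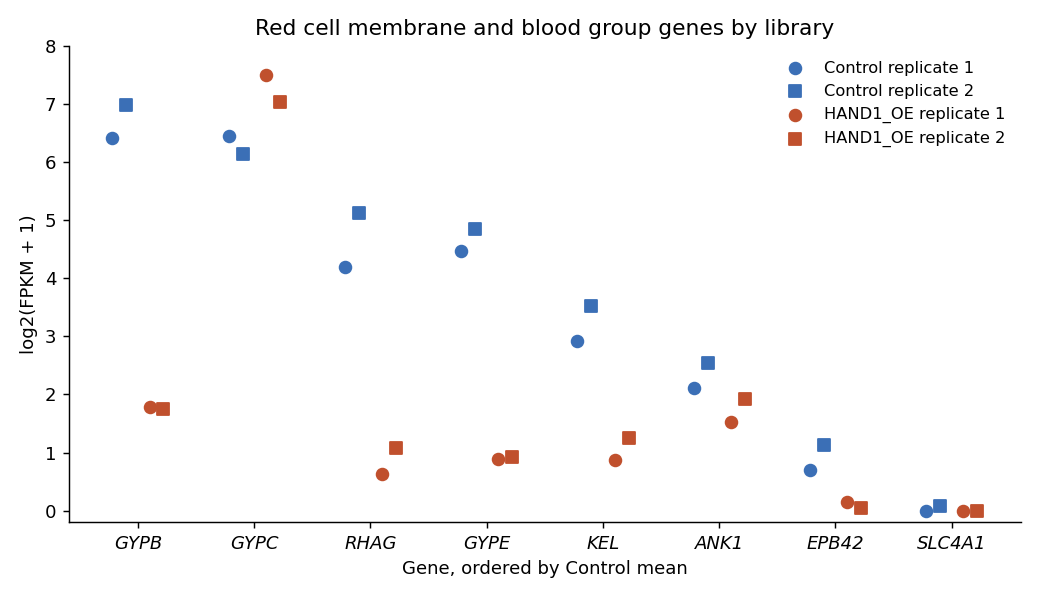
Level of each gene as log2(FPKM + 1) in each of the 4 libraries, genes ordered by their Control mean, with circles for replicate 1 and squares for replicate 2. GYPB, RHAG, GYPE and KEL were well below Control in both HAND1_OE libraries, GYPC was above Control in both, and SLC4A1 was at or near 0 throughout.

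GYPB (ENSG00000250361.7, chr4:143996104-144019345, GRCh38), the carrier of the S and s antigens, was at 84.4 and 125 FPKM in Control, against 2.45 and 2.37 FPKM in HAND1_OE. Its mean was 105 ± 28.7 FPKM (SD, n = 2) in Control and 2.41 ± 0.0545 FPKM (n = 2) in HAND1_OE, 43.4-fold lower. It had the highest mean of the 8 in Control, above 94.7% of tested genes, and above 20.2% of them in HAND1_OE. Its log2 fold change was -4.93 (SE 0.22, 95% interval -5.47 to -4.38, adjusted p = 0.00335), the largest fall of the 6 tested. Its coding transcripts in GENCODE release 29 are short, 360 to 521 nt, and on them the HAND1_OE values amount to an estimated 3.60 to 15.6 fragments per library, against 133 to 661 in Control. Of the 100-base stretches in its transcripts, 4.92% also occur in transcripts of another gene, and of the 50-base stretches 15.4%, so part of its reads could have been divided between genes.

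GYPE (ENSG00000197465.13, chr4:143870867-143905563), the related glycophorin gene whose promoter is shown above, followed GYPB at a lower level. It was at 21.2 and 27.97 FPKM in Control and 0.855 and 0.895 FPKM in HAND1_OE, with means of 24.6 ± 4.75 and 0.875 ± 0.0285 FPKM (SD, n = 2 each). It fell 28.1-fold, to 3.56% of Control, with a log2 fold change of -3.76 (SE 0.20, adjusted p = 0.00379). None of its 100-base stretches was shared with another gene, and at 50 bases 1.25% were, all of them with GYPB. The HAND1_OE values correspond to an estimated 4.21 to 31.5 fragments.

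GYPC (ENSG00000136732.14, chr2:126655933-126696675), the glycophorin of the junctional complex, went the other way. It was at 86.5 and 69.4 FPKM in Control and 179.7 and 129.8 FPKM in HAND1_OE. Its HAND1_OE mean, 155 ± 35.3 FPKM, was 1.99 times its Control mean, 78.0 ± 12.1 FPKM (SD, n = 2 each), and each HAND1_OE library was above both Control libraries. The log2 fold change of 0.97 (SE 0.22, 95% interval 0.43 to 1.51) did not pass the threshold (adjusted p = 0.0812). Quantile normalization brought the adjusted p of GYPC to 0.0417, and the replicate block is described further below. The adjusted p remained above 0.05 after median-ratio scaling (0.0701), without the trend (0.0995) and at the 0.1 pseudocount (0.0879). The same held for protein-coding genes alone (0.0507), for 1 FPKM in every library (0.0661) and for all genes above 0 (0.286). Leaving out single libraries gave log2 fold changes from 0.74 to 1.20. With at least 983 estimated fragments in every library, counting error was small for this gene.

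RHAG (ENSG00000112077.15, chr6:49605158-49636839), the ammonium-transporting partner without which the Rh polypeptides do not reach the membrane, was at 17.2 and 33.8 FPKM in Control and 0.539 and 1.10 FPKM in HAND1_OE. Its means were 25.5 ± 11.7 and 0.821 ± 0.399 FPKM (SD, n = 2 each), so that its replicates differed more than those of the glycophorins but the groups were far apart. RHAG fell 31.1-fold, with a log2 fold change of -3.81 (SE 0.35, 95% interval -4.68 to -2.94, adjusted p = 0.00851). The HAND1_OE values rest on an estimated 12.8 to 43.5 fragments.

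KEL (ENSG00000197993.7, chr7:142941114-142962681), the Kell endopeptidase, was at 6.61 and 10.5 FPKM in Control and 0.822 and 1.38 FPKM in HAND1_OE. It fell from 8.55 ± 2.75 to 1.10 ± 0.395 FPKM (SD, n = 2 each), 7.77-fold, with a log2 fold change of -2.17 (SE 0.27, 95% interval -2.85 to -1.49, adjusted p = 0.0194). KEL kept 12.9% of its Control level, where GYPB kept 2.30% and RHAG 3.21%. Without Control replicate 2, its adjusted p was 0.0440.

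ANK1, EPB42 and SLC4A1, the ankyrin complex genes other than RHAG, were low in both groups. ANK1 (ENSG00000029534.19, chr8:41653220-41896762), the adaptor that ties band 3 to spectrin, was at 3.33 and 4.80 FPKM in Control and 1.89 and 2.81 FPKM in HAND1_OE. The groups did not overlap, but the highest HAND1_OE library was at 84.5% of the lowest Control library, and the log2 fold change of -0.59 (SE 0.25, 95% interval -1.21 to 0.02) did not pass the threshold (adjusted p = 0.304). Exons of ANK1 overlap those of AC113133.1 on the opposite strand, and whether strand was used in counting is not given in the sources used here.

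EPB42 (ENSG00000166947.11, chr15:43106225-43221283 in the deposited table) was at 0.627 and 1.20 FPKM in Control and 0.113 and 0.0326 FPKM in HAND1_OE. Both HAND1_OE libraries were below both Control libraries, at an estimated 0.210 to 6.48 fragments against 3.96 to 56.6 in Control. With 1 library at 1 FPKM or more it was not tested among the filtered genes, and over all genes above 0 its log2 fold change was -0.82 (adjusted p = 0.278). Of its 100-base transcript stretches, 10.99% are shared with AC068724.4, which overlaps it on the same strand.

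SLC4A1 (ENSG00000004939.13, chr17:44248385-44268141), the gene for band 3, was listed at 0 and 0.0564 FPKM in Control, against 0 for both HAND1_OE libraries. The single value above 0 corresponds to an estimated 1.41 to 5.70 fragments. A count of 3 fragments would have read 0.0245 to 0.0992 FPKM in HAND1_OE replicate 1 and 0.0280 to 0.115 FPKM in replicate 2, depending on the transcript, so a difference was not detectable at this depth. These limits cover counting error only. A listed 0 does not show that the gene was silent.

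The order of the levels differed between the groups. In Control it was GYPB, GYPC, RHAG, GYPE, KEL, ANK1, EPB42 and SLC4A1, and the ranges of neighbours overlapped for GYPB with GYPC and for RHAG with GYPE. In HAND1_OE it was GYPC, GYPB, ANK1, KEL, GYPE, RHAG, EPB42 and SLC4A1, and neighbours overlapped for GYPB with ANK1, for KEL with GYPE and for GYPE with RHAG. GYPC was above 92.3% of tested genes in Control and 96.6% in HAND1_OE, whereas RHAG moved from above 75.1% of them to above 2.78%.

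Ratios within a library, which do not depend on its depth, showed which genes fell by unequal amounts. GYPB to GYPE was 3.97 and 4.47 in Control and 2.87 and 2.65 in HAND1_OE. GYPB to RHAG was 4.90 and 3.70 against 4.55 and 2.15, with overlapping groups. These 3 genes kept ratios of the same order while each fell at least 28.1-fold. Their HAND1_OE values rest on few fragments, as given above for each gene.

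RHAG to KEL was 2.61 and 3.22 in Control and 0.655 and 0.799 in HAND1_OE. In FPKM, RHAG was thus the higher of the pair in Control and the lower in HAND1_OE. The HAND1_OE values rest on an estimated 12.8 to 43.5 fragments for RHAG and 7.24 to 79.8 for KEL, depending on the transcript. ANK1 to KEL was 0.504 and 0.457 against 2.30 and 2.04. GYPB to KEL was 12.8 and 11.9 in Control and 2.98 and 1.72 in HAND1_OE. The widest shift of the 6 ratios was in GYPB to GYPC, at 0.976 and 1.80 in Control and 0.0136 and 0.0183 in HAND1_OE. With 2 libraries per group the exact two-sided permutation test cannot go below p = 0.333, which was its value for each of these ratios but GYPB to RHAG (exact p = 0.667).

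**Figure D2:**
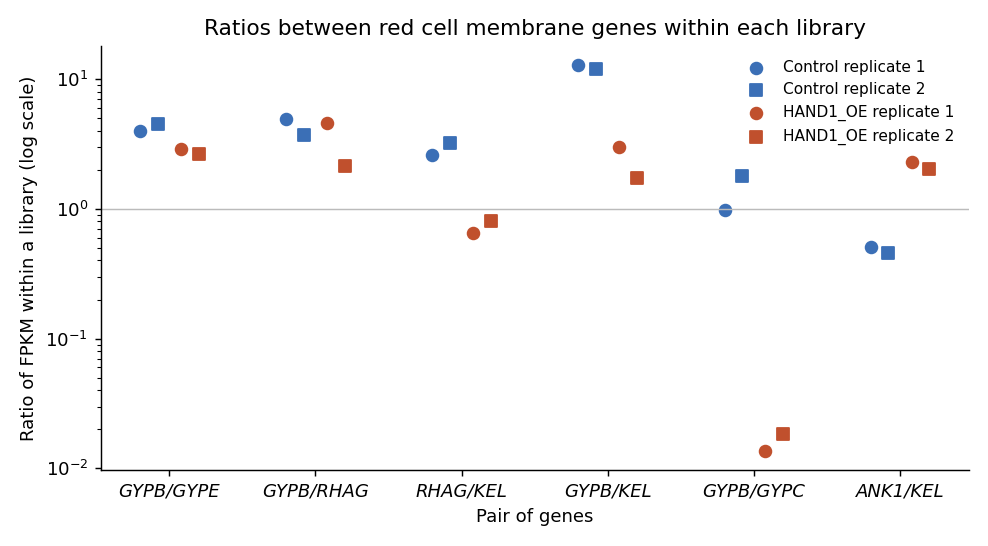
Ratio of FPKM between pairs of genes within each library, on a log scale, with circles for replicate 1, squares for replicate 2 and a line at a ratio of 1. GYPB to GYPE and GYPB to RHAG stayed between 2.15 and 4.90 in all 4 libraries, whereas GYPB to GYPC dropped from 0.976 and 1.80 to 0.0136 and 0.0183.

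The Control replicates differed in the same direction for most of the genes, and the HAND1_OE replicates did not. Control replicate 2 was above Control replicate 1 for 7 of the 8, GYPC being lower, whereas it was above for 45.7% of the tested rows of the table. Control replicate 2 over replicate 1 was 1.96 for RHAG, 1.91 for EPB42, 1.59 for KEL, 1.48 for GYPB, 1.44 for ANK1 and 1.32 for GYPE, and 0.803 for GYPC. Erythroid markers outside the membrane were higher in the same replicate for 11 of 14. So were 32 of the 46 related genes described below, 5 of 7 megakaryocyte markers and 5 of 6 markers shared by blood cells. Of the myeloid markers 1 of 7 was higher there, and of the endothelial markers 2 of 8. Between the HAND1_OE libraries, replicate 2 over replicate 1 was 2.05 for RHAG, 1.68 for KEL, 1.48 for ANK1 and 1.05 for GYPE. It was 0.969 for GYPB, 0.72 for GYPC and 0.29 for EPB42. HAND1_OE replicate 2 was above replicate 1 for 50.7% of the tested rows.

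Of 46 further genes of the red cell membrane and blood groups, 33 were tested, 6 fell and 2 rose, and 25 did not pass the threshold. Their median log2 fold change was -0.25, and 18.2% of those tested were called lower and 6.06% higher, beside 2.11% and 2.04% of all genes tested. Among the Rh and Kell partners, ICAM4, the Landsteiner-Wiener adhesion protein of the Rh complex, fell from 20.1 and 20.8 FPKM to 4.48 and 4.48 FPKM (log2 fold change -1.97, adjusted p = 0.00700). The Rh genes themselves and XK were below the filter: RHD was at 0.621 and 0.627 FPKM in Control and 0.0565 and 0.0871 FPKM in HAND1_OE, and RHCE, a near-identical copy with which it may share reads, at 0.343 and 1.09 against 0.222 and 0.298 FPKM. XK, the membrane partner of KEL, was at 0.494 and 0.978 against 0.117 and 0.115 FPKM. CD47 had a log2 fold change of -0.41 (adjusted p = 0.211). Per length, RHAG was above RHD and RHCE, and KEL above XK, in all 4 libraries.

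Among 10 tested genes of the spectrin skeleton, 1 fell and 1 rose. MPP1, the p55 scaffold that binds GYPC, fell from 42.4 and 49.1 FPKM to 16.97 and 15.5 FPKM (log2 fold change -1.44, adjusted p = 0.0125), while GYPC had a positive fold change that did not pass the threshold. EPB41, the other link of GYPC to actin, was at 34.3 and 44.5 FPKM in Control and 20.0 and 27.8 FPKM in HAND1_OE (log2 fold change -0.71, adjusted p = 0.183). TPM1, a tropomyosin also known from muscle and from most cells with stress fibres, rose from 73.9 and 61.6 FPKM to 161 and 151 FPKM (log2 fold change 1.20, adjusted p = 0.0220). SPTB, the beta spectrin of the red cell, was below the filter, at 0.753 and 1.49 FPKM in Control against 0.0822 and 0.167 FPKM in HAND1_OE.

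Among 10 tested carriers of other blood group antigens, 4 fell and 6 did not pass the threshold, 5 of which had positive fold changes. SMIM1, the Vel antigen protein, fell from 18.6 and 16.7 FPKM to 4.59 and 4.09 FPKM (log2 fold change -1.81, adjusted p = 0.00851). CD55, the complement regulator of the Cromer antigens, fell from 12.8 and 17.6 FPKM to 4.04 and 5.17 FPKM (-1.52, adjusted p = 0.0258). ERMAP, the Scianna protein, fell from 4.09 and 5.85 FPKM to 1.37 and 1.62 FPKM (-1.25, adjusted p = 0.0458). The fourth was BCAM, the Lutheran laminin receptor (-1.13, adjusted p = 0.0220). CD59, also a complement regulator, had a log2 fold change of 0.80 (adjusted p = 0.0812), and CD44, the hyaluronan receptor of the Indian antigens, one of 0.93 (adjusted p = 0.195).

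None of 7 tested red cell transport genes was called by limma, and 3 had an unadjusted p under 0.05, the nucleoside transporter SLC29A1, the porphyrin transporter ABCB6 and the Junior antigen carrier ABCG2. ABCG2 passed the filter through its Control libraries alone, so its direction is no separate evidence. All 7 had negative fold changes, with a median of -0.40, beside -0.08 over all genes tested. Leaving out single libraries changed the sign of SLC2A1, AQP1, AQP3 and PIEZO1, which reached at most 0.20, 0.46, 0.15 and 0.08. Of 4 tested glycosyltransferases of blood group sugars, B3GALNT1, the globoside synthase, rose from 5.17 and 5.47 FPKM to 12.2 and 13.9 FPKM (log2 fold change 1.15, adjusted p = 0.0258), and 3 did not pass the threshold. The count of falls among the 46 went from 6 to 2 without Control replicate 2, ICAM4 and SMIM1 being left, and the count of rises went from 2 to 1 without Control replicate 1, to 0 without Control replicate 2 and to 1 without HAND1_OE replicate 2.

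**Figure D3:**
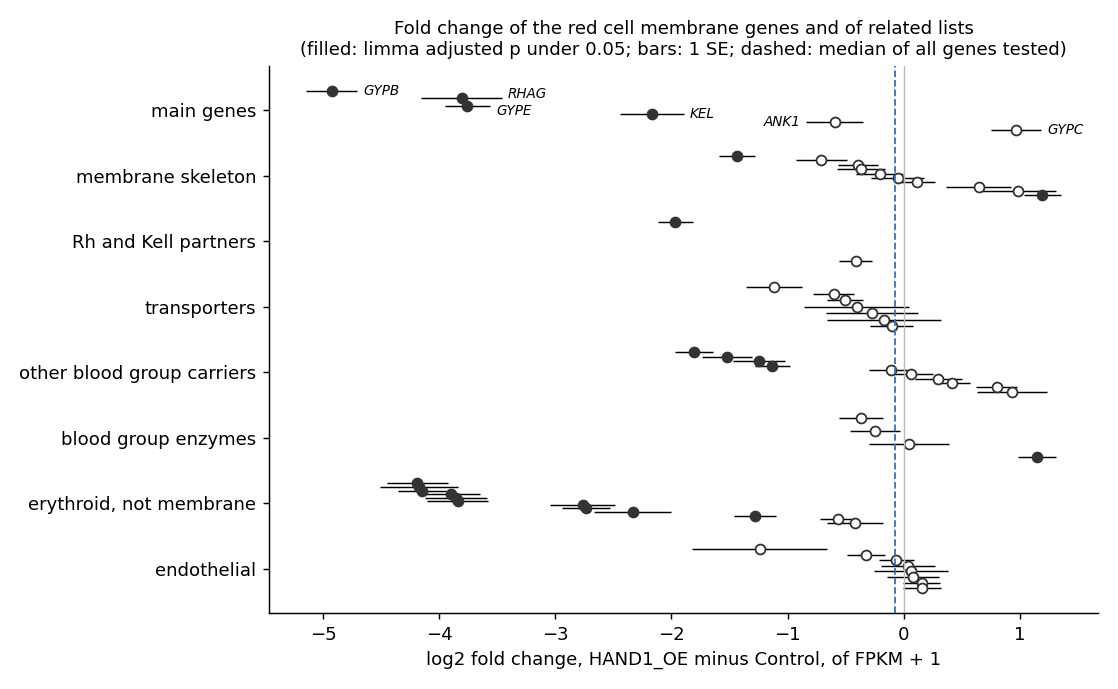
log2 fold change of FPKM + 1, HAND1_OE minus Control, for each tested gene of the main set, of the 5 related lists, and of the erythroid and endothelial marker lists. Filled points passed an adjusted p of 0.05, bars are 1 SE, and the dashed line is the median of all genes tested at -0.08. GYPB, RHAG, GYPE and KEL lay between -5 and -2, as did 9 of the 12 tested erythroid markers and none of the genes in the 5 related lists. In marker lists not drawn here, 4 of 6 tested megakaryocyte, 2 of 3 myeloid and 2 of 5 shared blood cell markers lay in that range.

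Most of the tested markers of blood cell types were called lower, as GYPB, GYPE, RHAG and KEL were. Their part in the result was not tested. Of 14 erythroid markers outside the membrane, 12 were tested and 10 fell, with a median log2 fold change of -3.30. They were the globins HBZ, HBE1, HBG1, HBG2, HBA1 and HBA2, the heme synthesis enzyme ALAS2, the transcription factors GATA1 and KLF1 and the transferrin receptor TFRC, with log2 fold changes from -1.28 for TFRC to -4.19 for HBE1. The summed level of all 14 was 803 and 1137 FPKM in Control and 73.9 and 60.3 FPKM in HAND1_OE. HBB and the erythropoietin receptor gene EPOR did not pass (-0.42 and -0.56), and AHSP, the globin chaperone, was at 0.432 and 0.400 FPKM in Control, against 0 for both HAND1_OE libraries. HBG1 passed the filter through its Control libraries alone, as did ITGB3, GP9, PF4, LYZ and CD53 among the markers that follow.

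Of 7 megakaryocyte markers, 6 were tested and ITGA2B, ITGB3, GP1BA, GP9 and PF4 fell, the summed level being 123 and 158 FPKM in Control and 13.6 and 9.79 FPKM in HAND1_OE. Of 7 myeloid markers, 3 were tested and TYROBP and LYZ fell (sums of 30.5 and 26.7 against 3.99 and 2.57 FPKM), with ELANE listed at 0 in all libraries. CD14, below the filter, was at 0.228 and 0.223 FPKM in Control and higher, at 0.246 and 0.676 FPKM, in HAND1_OE. Of 6 markers shared by blood cells, 5 were tested and SPN, which encodes CD43, CD53, CORO1A and RUNX1 fell (sums of 49.5 and 72.1 against 9.28 and 15.0 FPKM). LCP1, the tested marker not called, was at 7.07 and 8.47 FPKM in Control and 3.30 and 9.78 FPKM in HAND1_OE. Its log2 fold change was -0.36 (adjusted p = 0.765). PTPRC was at or near 0 in all libraries. Of 8 endothelial markers, all were tested and none was called by limma in the main comparison, with 0 at an unadjusted p under 0.05. Among them CD34, also a marker of progenitors, was at 67.5 and 130.3 FPKM in Control and 21.7 and 70.0 FPKM in HAND1_OE (log2 fold change -1.24, adjusted p = 0.367). The sums of the 8 were 1434 and 1335 FPKM in Control and 1227 and 1385 FPKM in HAND1_OE.

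Genes outside the set were ranked by the Euclidean distance of their centred log2(FPKM + 1) values over the 4 libraries from the mean centred profile of the 6 tested genes. The nearest were GP1BA, a platelet von Willebrand factor receptor chain (0.157), ATP2A3, a calcium pump (0.166), FGFBP3, a binding protein of fibroblast growth factors (0.246), CD69, a leukocyte activation antigen (0.257), and CXCL2, a neutrophil chemokine (0.291). GP1BA, the closest, was at 9.04 and 13.1 FPKM in Control and 1.26 and 1.71 FPKM in HAND1_OE, and ATP2A3 at 23.8 and 35.3 against 4.85 and 5.80 FPKM. Of the genes themselves KEL was nearest to their mean profile (0.304) and GYPC farthest (3.42). The mean profile therefore describes KEL better than GYPC or GYPB (2.55).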

How the data were processed

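RNA was sequenced in 2 Control and 2 HAND1_OE libraries of CD31+ cells, prepared by an Illumina TruSeq kit, and groups follow the sample titles. The authors deposited 1 table of a value per gene and library, taken here as FPKM because its values are not whole and the submitters' processing notes name RSEM. These notes also name BWA, Bowtie and hg19, without roles or versions, whereas the coordinates match GRCh38. Of 58365 rows, 45 for Y copies of pseudoautosomal genes and 91 further rows of a repeated gene ID were left out. A value of 0 need not mean silence: CD99, used by most cells, was listed at 0 in 3 libraries in the row kept. Its symbol had 2 rows, and whether its reads lay in the row left out was not tested.

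log2(FPKM + 1) was compared, two-sided and with a mean-variance trend, in limma 3.58.1 under R 4.3.3 for genes that reached 1 FPKM in 2 libraries or more, and p-values were adjusted by Benjamini-Hochberg over all 14622. The script was tested on simulated data. Depth was estimated from the values that single fragments leave in single-exon genes (841 to 901 genes per library), and fragments per gene from the shortest and longest GENCODE release 29 coding transcripts. Promoters came from RefSeq (GRCh38.p14) and were aligned with Biopython 1.88. Named genes are the 8, HAND1, PECAM1, up to 3 called genes with the largest change from each related list, called marker genes and the 5 nearest profiles. Other genes, such as BCAM, EPB41, CD59, CD44, CD34, XK, LCP1, CD14 and PTPRC, were picked with their values in view. The values of 1 listed gene are not reported here. The genes, lists and tests were chosen with earlier results of these data known. Alternatives were a pseudocount of 0.1, other filters, quantile and median-ratio scaling, no trend, a replicate block, protein-coding genes alone, a fold of at least 2 as well, and leaving out each library.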

Additional observations from a re-analysis of the deposited data

How the results depend on the processing

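GYPB, GYPE, RHAG and KEL were called lower under each alternative run but the 2 that changed the filter on low values. Summing rows of a symbol was not run, since each of the 8 had 1 row. With every gene above 0 in any library, 29860 were tested and no gene was called by limma: 0 of the 8, 0 lower and 0 higher of the 46 related genes, and 0 lower and 0 higher of all genes. At an unadjusted p under 0.05 there were then 2352 lower and 1458 higher, and 6 of the 8 had such a p. GYPB, GYPE, RHAG and KEL had adjusted p-values of 0.153, 0.153, 0.162 and 0.184, and HAND1, with a log2 fold change of 5.20, one of 0.153. This setting tests more genes with low values, and the prior degrees of freedom went from 3.61 to 1.32. With 1 FPKM required in every library, GYPE, RHAG and KEL were no longer tested and 1 of the 8, GYPB, was called lower.

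Over the other alternatives adjusted p-values ran from 0.000320 to 0.00810 for GYPB, 0.000572 to 0.00810 for GYPE, 0.00176 to 0.0115 for RHAG and 0.00713 to 0.0440 for KEL. GYPC made 1 call higher after quantile normalization. Leaving out single libraries, 0 to 1 of the 8 were called higher, and of the 46 related genes 2 to 5 lower and 0 to 2 higher. Over all genes it gave 137 to 309 lower and 134 to 266 higher. The cause of these shifts was not tested.

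With the replicate block, 1 of the 8 was called higher (GYPC, adjusted p = 0.0144), 9 of the 46 were lower and 5 higher, and 712 genes were lower and 597 higher in all. It changed no other call among the 8. Libraries of the same number share only that number in the labels, and their deviations from the group means correlated at 0.38 over genes. Low values rest on few fragments, which limits SLC4A1, EPB42 and the HAND1_OE levels of GYPE and GYPB.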
